A study of Arabidopsis thaliana with 6 samples.

Results

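Transcript levels of genes for starch breakdown were followed in the aerial part of Arabidopsis seedlings, on ATH1 arrays that carry a set of oligonucleotide probes for each transcript they measure. The list held 10 starch genes, which were picked by name with earlier results of these arrays known, and a probe set counted only if the platform annotation gave it that gene's symbol or identifier. The annotation named a probe set for 2 of the 10 genes, PWD (AT5G26570) and DPE1 (AT5G64860), and the symbol PWD was also borne by another gene, AT4G24450, so that 3 probe sets of 22746 were described. The other 8 genes (AT1G10760 or SEX1, AT3G52180 or SEX4, AT3G01510 or LSF1, AT4G17090 or BAM3, AT4G09020 or ISA3, AT5G17520 or MEX1, AT2G40840 or DPE2, and AT1G32900 or GBSS1) could not be tied to a probe set in the annotation used here and were not analysed. None of the 3 probe sets therefore stood for a gene of starch synthesis.

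The eif3k mutant is a single T-DNA line, with the insertion in intron 6 of AT4G33250, which encodes the k subunit of the initiation factor eIF3. Both genotypes were of the Columbia ecotype, grown for 11 days at 22 °C on plates with 1% sucrose, and 3 biological replicates of each were hybridised. For either genotype, replicates 1 and 2 shared a first array date, and the arrays of replicate 3 were made later. The labels give 16 h of light and a harvest 4 h after the lights came on, whereas the study's methods give continuous light for eif3k, and which applied was not settled.

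Leaves store part of the carbon they fix as starch granules in the chloroplast and break them down at night. Breakdown opens with phosphate being placed on the glucan chains. The dikinase SEX1 acts first and PWD, the phosphoglucan, water dikinase, adds phosphate to chains that already carry some, which loosens the granule surface for debranching enzymes and beta-amylases. The maltose that these release leaves the chloroplast, and short leftover chains are reworked there by DPE1, the plastid disproportionating enzyme, which joins and splits them and frees glucose. AT4G24450 encodes a further dikinase of the same family, also known as GWD2, which is thought to reside outside the plastid. Transcripts of several breakdown enzymes are known to follow a daily rhythm.

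Median log2 signals of the arrays lay between 4.02 and 4.12, and 25.5% to 26.8% of the probe sets of an array were at the common floor of 2.25. The probe set for eIF3k had signals of 6.81, 6.62 and 7.52 in eif3k and 8.82, 9.18 and 8.89 in wild-type. Its signal was thus lower on every eif3k array. For this allele the study reported a 3′ truncated transcript and detected none of full length. Where the probes lie relative to the insertion was not examined, so the remaining signal cannot be assigned to either form. The leaf marker RCA, encoding Rubisco activase, had signals from 14.88 to 15.06. Of the root markers, EXPA7 was at or near the floor on all arrays and PYK10 had 10.87, 11.44 and 11.61 in eif3k and 10.62, 10.4 and 11.42 in wild-type, high on both later arrays and in eif3k replicate 2. The other leaf and root markers of the fixed lists had no probe set named here. In such whole-shoot RNA, fewer cells of a type and less RNA per cell cannot be told apart.

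The signals of PWD separated the array dates and overlapped between the genotypes. The log2 signal of PWD was 7.08, 6.88 and 9.11 in eif3k replicates 1, 2 and 3. In wild-type it was 6.78, 6.67 and 9.20. Replicate 3 was high in both genotypes, and the 4 arrays of the first date lay close together. The lowest later signal exceeded the highest first-date signal by 2.03 log2 units, while the first-date arrays had an SD of 0.17 (n = 4).

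**Figure D1:**
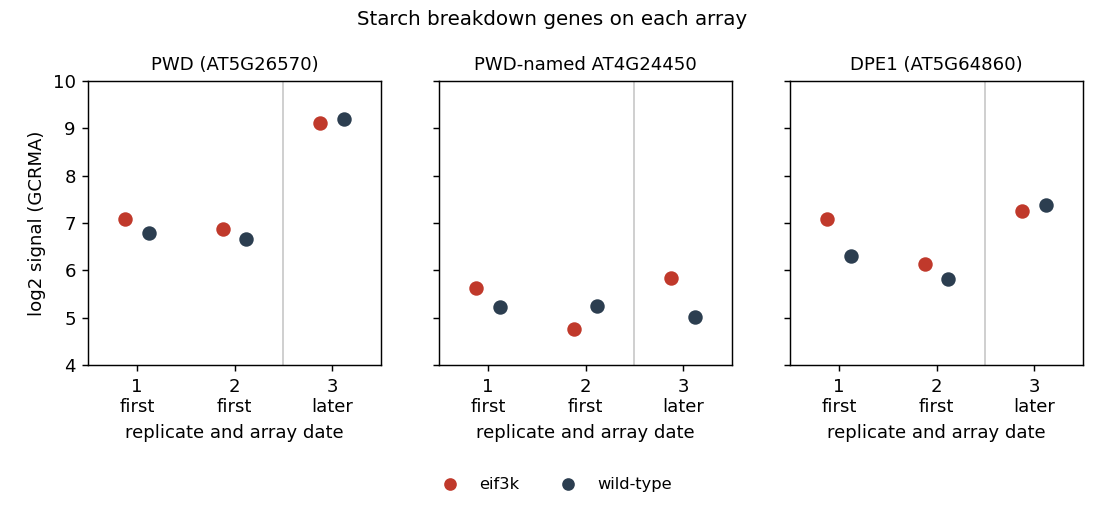
The log2 GCRMA signal (vertical axis) of PWD, of AT4G24450 and of DPE1 on each of the 6 arrays, by replicate and array date (horizontal axis), with a point for each array of eif3k and of wild-type. PWD lies between 6.67 and 7.08 on the first date and at 9.11 and 9.20 on the later date, AT4G24450 has no such step, and DPE1 is at 7.25 and 7.39 on the later date.

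With genotype in the fit, PWD was 2.30 log2 units higher on the later date (standard error 0.12), a 4.93-fold difference, and 56 of 22746 probe sets had a larger difference in that direction. The difference was 2.13 within eif3k and 2.48 within wild-type. DPE1 had signals of 7.09, 6.14 and 7.25 in eif3k and of 6.30, 5.81 and 7.39 in wild-type. Both later arrays were again above the 4 first-date arrays, by a gap of 0.16, which was less than the first-date SD of 0.54 (n = 4). The later minus first difference of DPE1 was 0.99 ± 0.40 (standard error), with 0.64 within eif3k and 1.34 within wild-type. AT4G24450 had signals of 5.62, 4.76 and 5.84 in eif3k and of 5.22, 5.25 and 5.01 in wild-type. Its dates overlapped, and the difference of 0.21 ± 0.37 (standard error) was 0.65 within eif3k and -0.23 within wild-type.

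Of these probe sets, 1 of 3, that of PWD, passed an adjusted p of 0.05 with at least a 2-fold higher later signal, against 0.224% of all probe sets in that direction. Both later arrays were above all first-date arrays for 2 of 3, against 10.6% of all probe sets. Because the genes were chosen with the values of the array dates known, these counts are a description and support nothing. The call of PWD was lost when any of the 4 first-date arrays was left out, with its difference then between 2.25 and 2.37. Replicate 3 differed from the others in its array date and in being another biological replicate, and these cannot be told apart.

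Of the clock and sugar starvation genes measured, 1 passed the threshold for array date. The probe set shared by the evening-phased clock gene LUX and AT5G59570 had signals from 2.31 to 2.37 on the first date. These lay near the floor, with an SD of 0.026, and that small spread enters its p-value. On the later date its signals were 5.96 (eif3k) and 5.62 (wild-type) (limma adjusted p = 0.020). CCA1, a morning-phased clock gene, had 9.40 and 9.78 in eif3k and 10.40 on both wild-type arrays of the first date. On the later date it had 8.84 (eif3k) and 8.69 (wild-type) (limma adjusted p = 0.221). LHY, also morning-phased, had 7.34, 8.20 and 9.20 in eif3k and 8.39, 8.76 and 8.16 in wild-type (limma adjusted p for array date = 0.881). Its later minus first difference was 1.43 within eif3k and -0.415 within wild-type, each resting on 1 later array. The evening-phased GI had 5.19 to 6.08 against 5.19 and 5.25 (limma adjusted p = 0.768). Both overlapped between dates. LUX, CCA1, LHY and GI were the 4 of 10 fixed clock genes with a probe set. Of the sugar starvation genes, DIN10 lay between 8.79 and 9.54 on the first date and had 11.69 in eif3k and 10.85 in wild-type on the later (adjusted p = 0.146). ASN1, an asparagine synthetase gene, ranged from 6.05 to 6.85 and had 5.90 and 5.49 (adjusted p = 0.458). These were 2 of 6 fixed genes. Whether they had a part in the PWD difference was not tested.

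Of 6 seed markers 2 had a named probe set. The seed storage gene CRA1 had signals of 7.43 (eif3k) and 8.93 (wild-type) on the later date and CRU3 had 6.92 and 7.33. On the first date CRA1 was at 2.86, 2.62 and 2.98 on 3 arrays but at 7.58 in eif3k replicate 2, and CRU3 at 7.22 there, the array where the root marker PYK10 was also high. PWD had 6.88 on that array. The 25S rRNA control had a signal of 8.13 on the array of eif3k replicate 3 and 12.04 to 12.87 elsewhere. The signal of the 3′ actin control exceeded that of the 5′ one by 3.99 in wild-type replicate 3 and by 3.04 to 3.19 elsewhere, and for GAPDH by 0.86 in eif3k replicate 3 and by 0.34 to 0.57 elsewhere. For ubiquitin this excess was 0.84 (eif3k) and 0.91 (wild-type) on the later date and 0.59 to 0.73 on the first, so that it separated the dates in both genotypes, as PWD did. Leaving out the eif3k array of the later date gave the within-wild-type difference of PWD again, 2.48. Leaving out the wild-type one gave that within eif3k, 2.13. Either way the later array that stayed had the higher ubiquitin excess. The part of these markers and controls in the PWD difference was not tested.

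The comparison of genotypes asked whether the starch transcripts depended on eIF3k. Over 3 arrays each, the mean signal of PWD was 7.69 ± 1.23 (SD) for eif3k and 7.55 ± 1.43 (SD) for wild-type. The difference of 0.14 had a standard error of 1.04, which the step between dates widened. With the array date as a block the standard error was 0.11. The same-numbered arrays differed by 0.30, 0.21 and -0.09 (eif3k minus wild-type). DPE1 had 6.83 ± 0.60 in eif3k and 6.50 ± 0.81 in wild-type (SD, n = 3), a difference of 0.33 ± 0.56 (standard error), with 0.79, 0.33 and -0.14 in the pairs. AT4G24450 had 5.41 ± 0.57 and 5.16 ± 0.13 (SD, n = 3), a difference of 0.25 ± 0.32 (standard error), with 0.40, -0.49 and 0.83 in the pairs. For each of the 3 probe sets the genotypes overlapped and the pairs were not alike in sign.

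With limma, 0 of 3 probe sets passed the threshold for genotype, and so did 0% of all probe sets. The probe set of the mutated gene eIF3k did not pass either, at -1.98 (3.94-fold lower in eif3k) with a limma adjusted p of 0.864. A count of 0 therefore cannot show that the starch transcripts were unaffected by genotype. At an unadjusted p under 0.05 there were 0 of 3 members, against 3.05% of all. Groups that did not overlap, with eif3k higher, were found for 0 of 3 members and 2.71% of all probe sets, and with eif3k lower for 0 of 3 and 2.31%. The genotype difference on the later date minus that on the first was -0.35 for PWD, -0.70 for DPE1 and 0.88 for AT4G24450, with limma adjusted p of 0.701, 1 and 0.910, and 0 of 3 passed against 0.492% of all. Each genotype had 1 array on the later date, so these values rest on a spread taken from the first date.

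**Figure D2:**
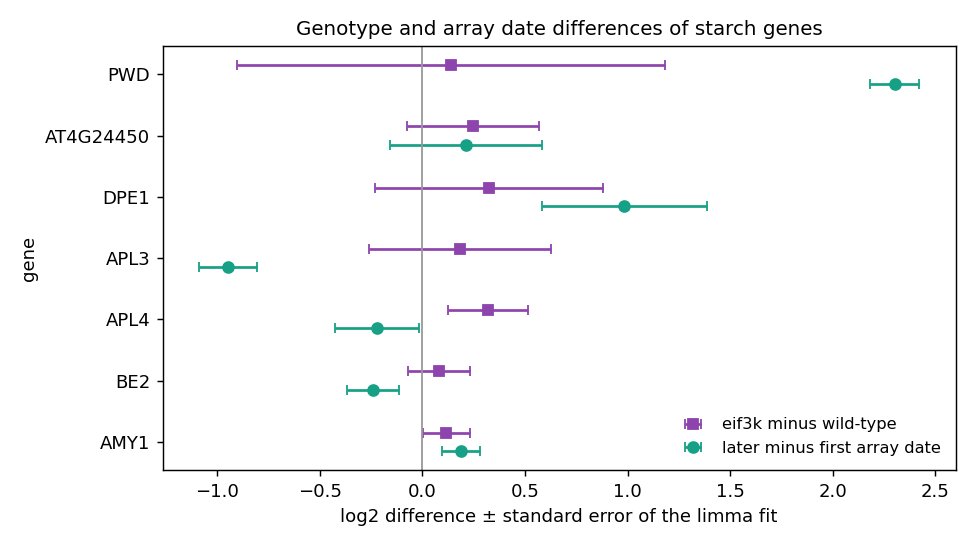
Log2 differences (horizontal axis) of 7 starch probe sets (vertical axis), eif3k minus wild-type (squares) and later minus first array date (circles), with bars for the standard error of the limma fit. The 7 genotype differences lie between 0.08 and 0.33, whereas the date differences run from -0.95 for APL3 to 2.30 for PWD.

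A fixed list of 29 other starch genes had 4 with a named probe set, 3 of 15 for synthesis and 1 of 14 for breakdown, and all 4 are given. APL3, a large subunit of ADP-glucose pyrophosphorylase, the enzyme that makes the glucosyl donor for starch, had 5.95, 6.12 and 4.89 in eif3k and 5.61, 5.83 and 4.97 in wild-type. Its later arrays were both below the first-date ones, at -0.95 ± 0.14 (standard error), the opposite direction to PWD. The adjusted p of limma for APL3 was 0.130, and 10.3% of all probe sets had both later arrays lowest. APL4, another large subunit, had signals from 2.52 to 3.30, near the floor, and a date difference of -0.22. BE2, a starch branching enzyme, had 8.98, 8.77 and 8.83 in eif3k and 8.93, 8.92 and 8.49 in wild-type. Its date difference was -0.24, and its genotype difference was 0.08 ± 0.15 (standard error).

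AMY1, a secreted alpha-amylase, stayed between 2.29 and 2.32 on 5 arrays and was 2.66 in eif3k replicate 3, the array with the low 25S rRNA control, where a signal this close to the floor decides little. Its genotype difference on the later date exceeded that on the first by 0.34, under 2-fold, with a limma adjusted p of 0.037. None of the 4 passed the threshold for genotype or for array date. For these 4 genes the genotype differences were 0.18 (APL3), 0.32 (APL4), 0.08 (BE2) and 0.12 (AMY1).

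**Figure D3:**
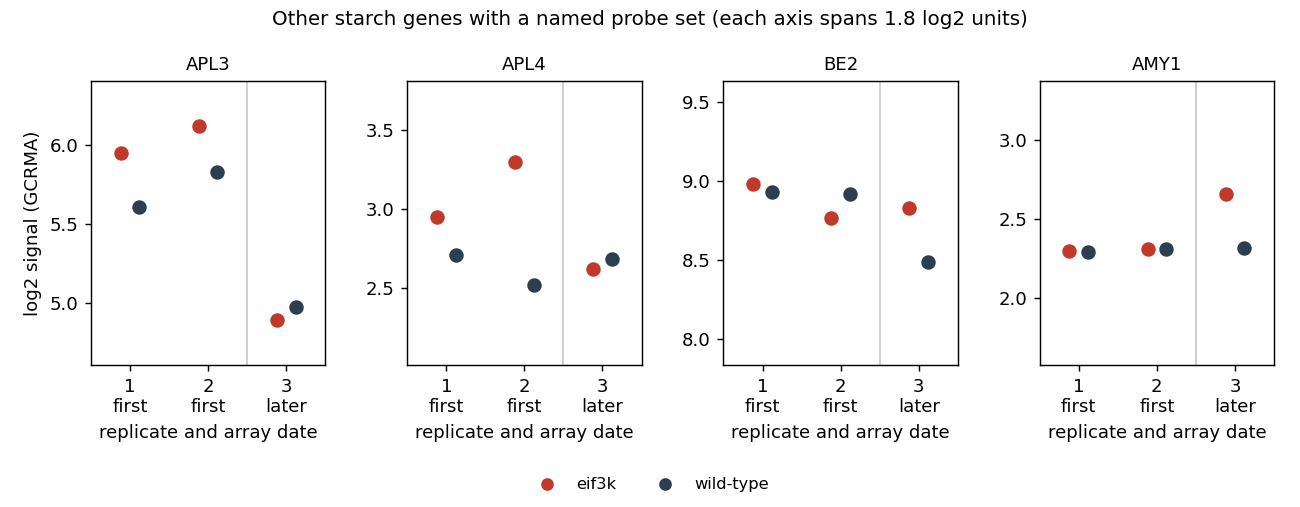
The log2 GCRMA signal (vertical axes, each spanning the same number of units) of APL3, APL4, BE2 and AMY1 on each array, by replicate and array date (horizontal axis), with a point for each array of eif3k and of wild-type. APL3 is at 4.89 and 4.97 on the later date, below its first-date range of 5.61 to 6.12.

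Across the 6 arrays PWD and DPE1 had a Pearson correlation of 0.832, PWD and AT4G24450 one of 0.292, and AT4G24450 and DPE1 one of 0.458. The arrays share their dates, and after centring within dates the values were 0.929, 0.136 and 0.397. The later arrays were close for PWD (9.11 and 9.20) and DPE1 (7.25 and 7.39). The value of 0.929 therefore rests mainly on the 4 first-date arrays, where PWD spanned only 6.67 to 7.08. Genotype was not removed, so this value cannot show that these genes vary together beyond date and genotype. The probe sets of single genes whose profile was most like the mean centred profile of the 3 were AT1G02260 (Pearson correlation 0.997 over 6 arrays), AT1G30820 (0.996), AT3G27320 (0.994), AT1G49750 (0.991) and AT3G05070 (0.985). All 5 were higher on the later date, by 0.12 (AT3G27320) to 0.92 log2 units. This followed from the choice, because the date step of PWD was the largest part of that mean profile.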

How the data were processed

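The 6 arrays measured total RNA. The authors' deposited values are log2 signals made with GCRMA (named in the submitters' processing notes, version not given in the sources used here), which corrects for background by probe sequence and forces the arrays to a common distribution, so that a shift of all transcripts is lost. The methods of the study name RMA instead. The log base was taken from the method and the range of values.

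Of 22810 probe sets, 64 controls were left out. The platform annotation named 14016 of the rest, 545 more were named by the study's supplementary probe set and locus pairs (used for no member), and 8185 are unnamed here. Those supplementary pairs, not the platform annotation, named the probe sets of eIF3k, CCA1, LHY, LUX, ASN1, DIN10, CRA1 and CRU3. Tests used limma (version 3.58.1, R 4.3.3; lmFit, eBayes, 2-sided, Benjamini-Hochberg over 22746 probe sets, adjusted p under 0.05 and at least 2-fold): genotype on all 6 arrays, array date with genotype as covariate, and their interaction. Standard errors are moderated. The script was tested on simulated data.

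Members and lists were chosen with earlier results of these data known. Named genes were every member with a probe set, the other listed starch genes that were measured, the 5 most alike profiles and eIF3k. Measured clock, sugar starvation, leaf, root and seed genes of the fixed lists are given beside the results. The rule also listed several other starch genes, but they had no probe set named here, and the 4 measured ones were named after their values were seen. The genotype fit reported had no block, and its standard errors and counts ignore the replicate numbers. The labels tie replicate 3 of both genotypes to its own date. Deviations of same-numbered arrays from their genotype mean correlated at 0.247, 0.378 and 0.542 across probe sets. The shared step of replicate 3 enters each of these values, so they cannot decide whether the other same-numbered arrays form pairs. A fit with the replicate number as a block was run as an alternative. Other alternatives were a date block, first date alone, scaling, a filter on dim probe sets, the variance prior, array weights, thresholds and leaving out each array. The number of arrays limits precision. P-values measure the spread between these replicates. For array date they hold no spread between repeats of a date, because no date was repeated.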

Additional observations from a re-analysis of the deposited data

How the results depend on the processing

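The date difference of PWD was between 2.13 and 2.48 under every alternative run. Its call was lost with a trended, robust variance prior, where 0 of the 3 members passed for array date, and 0 to 1 passed when 1 array was left out.

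Over all probe sets, 76 passed for array date, but 160 with median centring, 470 among brighter probe sets only, 4 with the trended prior, 156 with the adjusted p alone, 199 within eif3k, and 0 to 199 when 1 array was left out. For the interaction 112 passed, but 65 with median centring, 0 among brighter probe sets and 102 to 169 without 1 first-date array. For genotype 0 passed under all alternatives run, and with the replicate number as a block 0 members and 0 probe sets passed, PWD keeping a difference of 0.14. The causes of these changes were not tested.

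Genotype differences that did not pass turned in sign in some settings. AT4G24450 had -0.045 on the first date alone and -0.094 with array weights, and BE2 -0.050 and -0.035. Leaving out 1 array gave -0.57 to 0.97 for PWD, -0.018 to 0.77 for DPE1, -0.067 to 0.57 for APL3, -0.065 to 0.16 for BE2 and -0.0017 to 0.18 for AMY1. For array date, AT4G24450 had -0.23 within wild-type and -0.23 to 0.65 when 1 array was left out, and APL4 had 0.065 within wild-type and -0.51 to 0.065.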
